A study of Homo sapiens with 2 samples.

Results

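The 90 genes described here were all but unread in a library of H1944 cells carrying a control hairpin and were read in a library of USP12-knockdown cells. A gene was taken when it had a count of at most 3 in the control library (shCON) and of at least 50 in the knockdown library (shUSP12). Genes on the Y chromosome, TTTY15, CDKN2A, CDKN2B, CDH11, CX3CL1, MAEL, TMPRSS4 and all kallikrein, metallothionein 1, HOX, collagen, MAGE, PAGE, GAGE, XAGE, SSX, CT45 and CTAG names were left out by the rule. Of 57963 rows that this rule could take, 90 met it, which is 0.155%. The series held 59125 rows with a count. The genes were thus chosen by the counts of both libraries, so their difference between the libraries is given as a description and was not tested.

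H1944 is an established human lung adenocarcinoma line. The study sequenced RNA from control cells and from USP12-knockdown cells to compare their transcriptional profiles, with 1 library per group, and the USP12 protein is a deubiquitinase, which strips ubiquitin off other proteins. In the study's methods hairpins were delivered to cells by lentivirus. Which hairpin against USP12 was sequenced is not given in the sources used here, and the header of the control table named RFP whereas the methods described a hairpin against GFP. With 1 library per group there was no replicate check, no p-value was computed, and every difference is between these 2 libraries.

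In total 18249112 counts were deposited for shCON and 17475359 for shUSP12. USP12 itself had 711 counts in shCON and 219 in shUSP12, which is 40.8 and 12.0 counts per 1000000 (CPM) with library sizes adjusted by the trimmed mean of M values. Its shUSP12 level was thus 29.3% of the control level, with a log2 ratio of -1.76 (95% exact interval -1.99 to -1.55, counting error only). The gene rule left 20 further rows aside by name or chromosome that passed the same count thresholds. Among the 509 rows on the Y chromosome, 2 were above 3 counts in shCON and 15 in shUSP12. That signal moved in the same direction as the 90 genes, and its part in the results below was not tested. Whether both libraries were made from the same H1944 cells was not tested either, and a difference in the cells cannot be told apart from the knockdown in any value given here. In a bulk sample, fewer cells of a type and less RNA per cell cannot be told apart.

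Genes that are silent in a cell are often those that belong to another tissue or to the germ line, where they are read under the control of tissue-specific transcription factors. Epithelial cells, from which lung adenocarcinoma arises, are held together by cadherins, claudins and keratins, and a shared set of regulators that includes the grainyhead factors, the ESRP splicing regulators and OVOL proteins keeps that set of genes on. The factors ZEB1, ZEB2, SNAI1 and SNAI2 turn it off by binding the hexamer CACCTG, or CAGGTG on the other strand, in promoters such as that of the cadherin gene CDH1. Promoters of widely used genes are mostly rich in CG dinucleotides, and methylation of those dinucleotides goes with silence of germline genes in somatic cells.

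Promoters of 4 of the genes are shown, each spanning 250 bases before and 50 after the RefSeq start on GRCh38.p14 and written 5′ to 3′ on the strand of the gene. RAB25 and MACC1, a vesicle-traffic GTPase of epithelia and a regulator of the receptor gene MET, are shown because they hold several copies of CACCTG or CAGGTG, which are in capitals. HENMT1, a methyltransferase of germline small RNAs, and NKX2-1, the transcription factor of lung and thyroid, are shown as CG-rich promoters, with every CG in capitals.
RAB25, chr1:156060910-156061209, plus strand: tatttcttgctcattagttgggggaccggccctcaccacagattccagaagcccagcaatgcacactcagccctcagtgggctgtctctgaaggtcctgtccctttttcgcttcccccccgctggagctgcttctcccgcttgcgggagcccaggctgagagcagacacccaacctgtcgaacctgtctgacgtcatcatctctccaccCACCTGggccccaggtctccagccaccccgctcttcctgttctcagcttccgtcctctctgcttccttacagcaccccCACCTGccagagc
MACC1, chr7:20217335-20217634, minus strand: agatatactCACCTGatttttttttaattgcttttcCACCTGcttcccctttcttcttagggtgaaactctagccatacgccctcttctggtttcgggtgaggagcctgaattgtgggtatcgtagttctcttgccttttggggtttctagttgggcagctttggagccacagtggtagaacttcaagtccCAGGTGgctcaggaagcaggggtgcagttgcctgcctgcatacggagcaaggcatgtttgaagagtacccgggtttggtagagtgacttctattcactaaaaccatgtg
HENMT1, chr1:108661425-108661724, minus strand: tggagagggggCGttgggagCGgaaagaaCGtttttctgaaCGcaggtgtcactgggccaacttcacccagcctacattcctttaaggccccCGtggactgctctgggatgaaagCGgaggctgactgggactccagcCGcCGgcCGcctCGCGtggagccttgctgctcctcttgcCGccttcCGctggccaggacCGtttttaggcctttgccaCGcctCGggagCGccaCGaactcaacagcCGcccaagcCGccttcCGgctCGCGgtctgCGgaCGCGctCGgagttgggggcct
NKX2-1, chr14:36520183-36520482, minus strand: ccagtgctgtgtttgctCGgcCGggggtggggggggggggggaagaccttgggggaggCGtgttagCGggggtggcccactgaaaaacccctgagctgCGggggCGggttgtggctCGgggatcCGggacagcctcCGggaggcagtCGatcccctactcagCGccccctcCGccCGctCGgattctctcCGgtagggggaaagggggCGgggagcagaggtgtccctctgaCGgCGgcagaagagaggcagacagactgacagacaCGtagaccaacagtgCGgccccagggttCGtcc
The RAB25 window held 2 of the hexamers and the MACC1 window 3. The HENMT1 window held 27 CG dinucleotides at a GC content of 65.3%, and the NKX2-1 window 21 at 69.0%.

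RefSeq promoter windows were matched for 51 of the 90 genes, 49 of them protein-coding. Either form of the hexamer was found in 22 of those 49 coding promoters, or 44.9%, against 19.9% of 15139 coding promoters of rows in the tables and 20.6% of all 27305 promoters. The next rank of silent genes, 176 coding rows at or below 3 counts in shCON with 10 to 49 in shUSP12, held it in 21.0%. The 2 letter strings are reverse complements, so 1 motif was searched on both strands and every site counted once. Promoters with the hexamer were not confined to epithelial genes. Besides RAB25, MACC1 and CLIC5, they included those of the germline genes GTSF1, HENMT1 and SYCP2 and the neuronal genes TENM4 and CNR1. The windows of the epithelial genes MUC4 and SCIN lacked it, and ESRP2 and GRHL2 had no matched window. A match of letters is a description, not a binding site. CG-dense windows, with a GC content of at least 50% and at least 0.6 of the CG number that base composition gives, made up 59.2% of the 49 coding promoters. That share was 64.5% over all coding rows, 83.4% over coding rows with 50 or more counts in both libraries and 25.2% over coding rows with at most 3 in both. The genes read in shUSP12 alone thus lay between those read in both libraries and those unread in both in this measure. This was not particular to them, as the 176 coding rows of the next rank, at 48.9%, lay between as well.

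The 90 genes summed to 116 counts in shCON and 10758 in shUSP12. In shUSP12 this was 588 CPM (95% exact interval 577 to 599), or 0.0616% of all counts. In shCON 29 of them were at 0, 21 at 1, 25 at 2 and 15 at 3. The median count in shUSP12 was 81 and the highest 639, with 53 genes between 50 and 99, 37 at 100 or more and 11 at 200 or more. The 10 most counted genes held 32.7% of these counts and the first 30 held 60.8%. Per kilobase of annotated exon the genes were weakly read in shUSP12. Their CPM per kilobase ran from 0.135 to 36.3 with a median of 1.25, against a median of 4.70 over the 12698 coding rows that averaged 1 CPM or more. Only 4 of the coding genes, RAB25, CST6, FBLN2 and NKX2-1, lay above that median.

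The opposite pattern, 50 or more counts in shCON but no more than 3 in shUSP12, was found in 0 of the 57963 rows. At lower counts the imbalance was smaller. Rows with at most 3 counts in one library and 20 to 49 in the other numbered 141 with the reads in shUSP12 and 6 with the reads in shCON. The corresponding numbers were 308 and 137 at 10 to 19 counts and 1519 and 1018 at 4 to 9 counts. Among the 39790 rows that did not exceed 3 counts in shCON, the 90 genes made up 0.226%. In the plot of counts in both libraries, no row the rule could take lies in the space below the diagonal that would mirror the 90 genes. Among loci without a gene name, 1 passed the reversed thresholds.

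**Figure D1:**
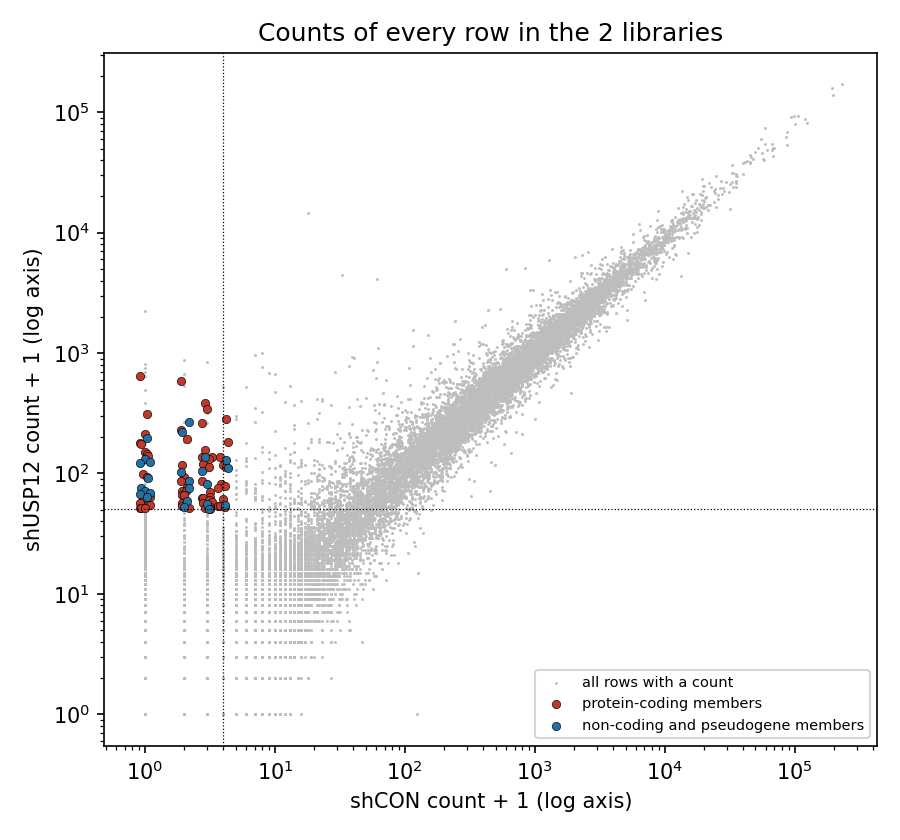
Each dot is 1 row, with its count plus 1 in shCON on the horizontal and in shUSP12 on the vertical axis, both logarithmic; dotted lines mark the thresholds of 3 and 50 counts, and the 90 genes are coloured and shifted slightly sideways where they would coincide. The coloured dots reach 639 counts in shUSP12, while no row the rule could take had 50 or more counts in shCON but no more than 3 in shUSP12.

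The thresholds cut a continuous range. Just inside were AL121904.1 and LHX6 with 50 counts in shUSP12 and CYP4X1, FGF13, FREM2, GALNT5 and NCMAP with 51. Just outside were POU4F1, RPLP0P2 and ZNF334, which went from 0 to 49 counts, TPPP3 from 2 to 49 and AL035661.1 from 3 to 48. On the shCON side, 15 genes at 3 counts were taken, led by GRHL2. MAP7D2, with 4 counts in shCON and 299 in shUSP12, ISYNA1 with 4 and 283, MAP7D3 with 4 and 129, TMEM255B with 4 and 105 and SECTM1 with 4 and 96 were not. In all 22 rows with 4 or 5 counts in shCON reached 50 in shUSP12, and 9 rows at or below 3 ended at 45 to 49.

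The genes lay on 22 chromosomes. Chromosome 11 held 10 of them, or 11.1%, compared with 5.50% of the rows that averaged 1 CPM or more. Chromosome 5 held 9, or 10% against 4.75%, of which 4 belong to the gamma protocadherin cluster, and chromosome 1 held 9, or 10% against 10.2%. Although the genes were gathered as autosomal ones, the rule did not remove the X chromosome, and GPC4, VSIG1, FGF13 and AC004835.1 lie on it, which leaves 86 on autosomes. Protein-coding genes numbered 65, or 72.2%, against 34.1% of all rows the rule could take and 88.1% of rows averaging 1 CPM or more. The other 25 were 17 long non-coding RNAs and 8 pseudogenes. Folds below are given on CPM. For a gene at 0 in shCON the fold, written as at least, is a lower bound computed against 3 counts in that library. This bound takes the shUSP12 count as it stands and leaves out its counting error. It is therefore not a 95% limit, and an exact limit can be lower. For a gene with 1 to 3 counts the fold is the ratio with its 95% interval for counting error.

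By known function the 65 coding genes fell into 8 groups, drawn up after the genes were known. Genes of epithelia were 14, with 1752 counts in shUSP12 or 16.3% of the counts of all 90. Genes of vessels, matrix and surface signalling were 8 and held 19.7%, the largest share of the coding groups. Neuronal and guidance genes were 10 with 9.51%, developmental transcription factors 7 with 9.10%, gamma protocadherins 4 with 4.80%, germline genes 4 with 3.74% and immune genes 4 with 2.11%. The remaining 14 coding genes, of metabolism and other functions, held 10.8%, and the 25 non-coding genes and pseudogenes 24.0%. The plot of the 30 most counted genes shows that no single group filled the top.

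**Figure D2:**
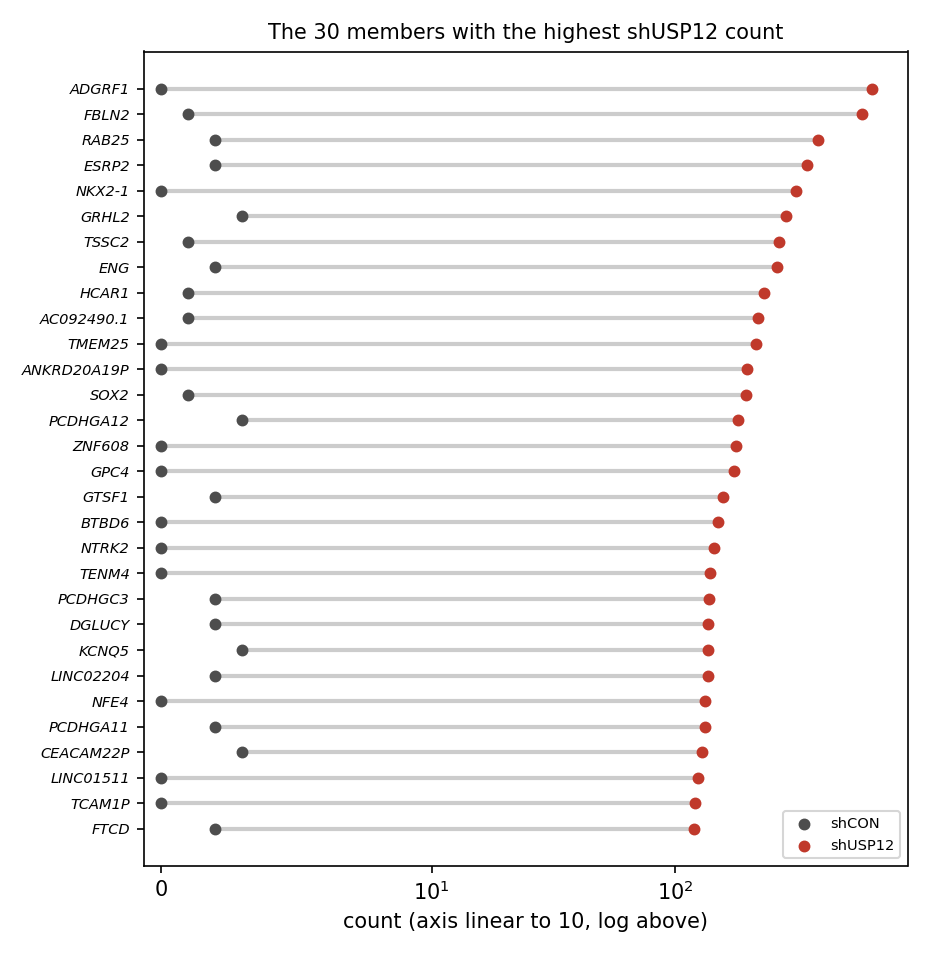
Counts of the 30 genes with the highest shUSP12 count, with shCON in grey and shUSP12 in red on an axis that is linear to 10 and logarithmic above. All grey points lie at 0 to 3 by the rule, and the red points run from 119 for FTCD to 639 for ADGRF1.

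Epithelial regulators were prominent among the most counted genes. RAB25 (ENSG00000132698, chr1:156061160-156070504, plus strand), an epithelial GTPase that recycles vesicles to the cell surface, had 2 counts in shCON and 383 in shUSP12, a ratio of 182 (95% interval 50.2 to 1512). ESRP2 (ENSG00000103067, chr16:68229033-68238102, minus strand), which directs epithelial splicing, went from 2 to 345 counts, a ratio of 164 (45.1 to 1362). It overlaps NFATC3 on the opposite strand, which had 510 and 398 counts. GRHL2 (ENSG00000083307, chr8:101492439-101669726, plus strand), the grainyhead transcription factor that maintains epithelial junctions, went from 3 to 285 counts, a ratio of 90.5 (30.7 to 441). CST6, a secreted inhibitor of cysteine proteases made in epidermis, had 0 and 97 counts, at least 30.8-fold higher. Per kilobase RAB25 was the highest coding member of the whole set, at 12.39 CPM per kilobase, and CST6 the next at 8.96.

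The other epithelial genes had between 51 and 85 counts in shUSP12, so each stood on few fragments. They were the membrane mucin MUC4 (2 and 85 counts), the chloride channel family protein CLIC5 (3 and 81), the actin-severing protein SCIN (3 and 78), the aldehyde dehydrogenase ALDH3B2 (1 and 71) and the secreted WFDC2 (2 and 62). VSIG1, a junction protein of stomach, had 1 and 56 counts, MACC1 had 0 and 54, and the membrane serine protease TMPRSS13 had 1 and 53. GALNT5, which starts O-linked sugar chains, had 2 and 51 counts, and FREM2, a basement membrane protein of developing epithelia, had 0 and 51. The epithelial genes described so far are known from different epithelia, among them epidermis for CST6 and stomach for VSIG1.

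To place these genes, 27 well-known epithelial genes that are not among the 90 were examined, chosen after the values were seen. Of the 27, OVOL1 was at 0 in shCON, with 16 counts in shUSP12, and the others had 4 or more counts in shCON. Averaging 1 CPM or more, 25 entered the count of changes, of which 12 were 2-fold or more higher in shUSP12 and 0 were 2-fold lower, with a median log2 ratio of 0.96. Over all 14612 rows counted this way, 6.48% were 2-fold higher, 3.01% were 2-fold lower, and the median was -0.01. As the 27 were picked with their values known, the difference from all rows is a description and was not tested. Some passed the filter only through shUSP12, such as ESRP1 with 0.40 CPM in shCON and 41.9 CPM in shUSP12. The paralogue ESRP1 had 7 counts in shCON and 767 in shUSP12. KRT19, a keratin of simple epithelia, had 32 and 4452 counts, and EPCAM, an epithelial adhesion molecule, 115 and 1566. The cadherin genes CDH3 and CDH1 went from 61 to 1096 and from 1026 to 2496 counts. Proteases of the epithelial surface were also higher, with ST14 at 60 and 846 counts and PRSS8 at 7 and 101, and the claudin gene CLDN3 had 4 and 85.

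Not all epithelial genes followed. KRT8 had 85596 counts in shCON and 62180 in shUSP12, so the shCON cells carried the main keratin of simple epithelia in quantity. ELF3, an epithelial transcription factor, had 1458 and 1362 counts, and the RAB25 relatives RAB11A and RAB11B had 2138 and 2494 and 778 and 711. The repressors ZEB1, ZEB2, SNAI1, SNAI2, TWIST1 and TWIST2 were read in both libraries. None of the 6 passed 2-fold in either direction with the scaling used, although SNAI2, which went from 216 to 436 counts, passed it with total-count scaling. ZEB1 had 318 counts in shCON and 259 in shUSP12, a log2 ratio of -0.36 (95% exact interval -0.61 to -0.12).

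**Figure D3:**
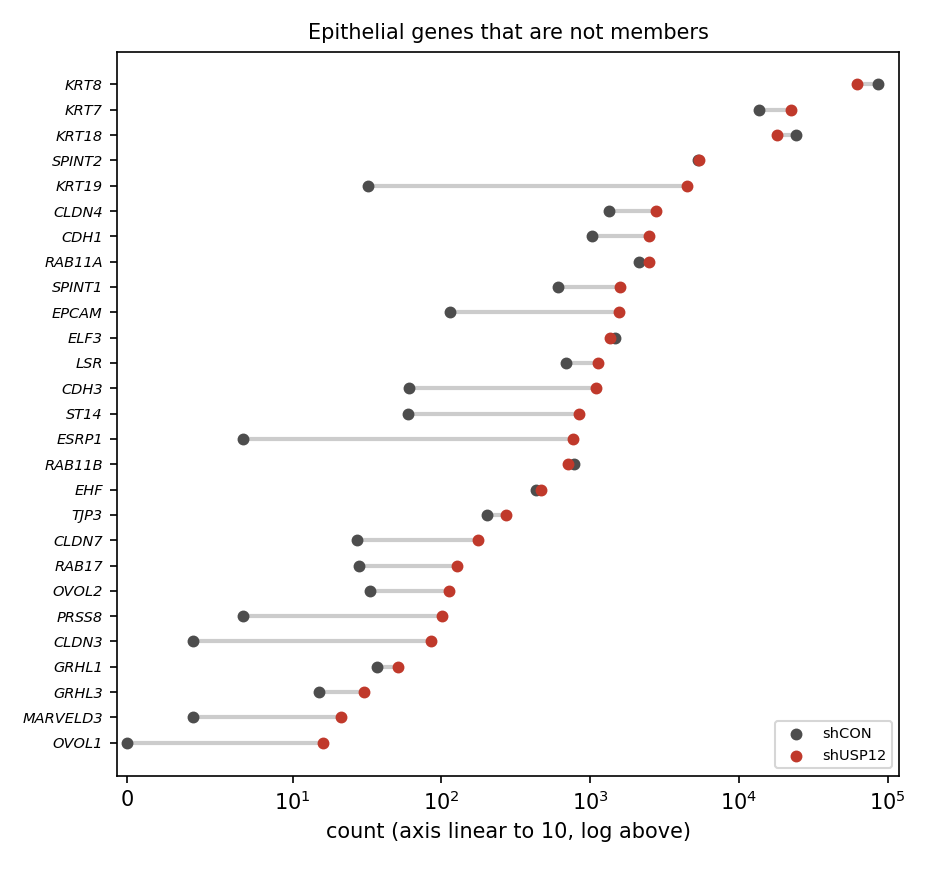
Counts in shCON (grey) and shUSP12 (red) of 27 epithelial genes that are not among the 90, on an axis that is linear to 10 and logarithmic above. ESRP1, KRT19, EPCAM, CDH3 and ST14 were far apart, while KRT8, KRT18, ELF3, EHF, SPINT2 and RAB11B lay close together.

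Transcription factors of development formed the next group. NKX2-1 (ENSG00000136352, chr14:36516392-36521149, minus strand), which specifies lung and thyroid and marks most lung adenocarcinomas, had 0 counts in shCON and 312 in shUSP12, at least 99.1-fold higher. SOX2, a factor of the foregut, neural progenitors and pluripotent cells, had 1 and 194 counts, a ratio of 185 (32.8 to 7337). The zinc finger gene ZNF608 had 0 and 177 counts, at least 56.2-fold higher. NFATC4, a calcium-regulated factor, had 3 and 112 counts and EYA1, a coactivator of ear and kidney development, 2 and 69. SOX5, a factor of cartilage and neurons, had 1 and 65 counts, and LHX6, a factor of cortical interneurons, 2 and 50. The factors thus came from endoderm, nervous system and cartilage rather than from 1 lineage.

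Reads of NKX2-1 did not come with the surfactant genes that it activates in alveolar cells. SFTPB and SFTPA1 were at 0 in both libraries, SFTPC had 0 and 2 counts, and the protease gene NAPSA had 9 and 12. SFTA3, its neighbour on the chromosome, was listed under 2 identifiers, one with 0 and 36 counts and the other at 0 in both. Of 6 partners, neighbours and targets averaging 1 CPM or more, LAMP3 was 2-fold higher, from 11 to 39 counts, and the lipid transporter gene ABCA3 was 2-fold lower, from 247 to 126. With total-count scaling ABCA3 was no longer 2-fold lower. FOXA1, which acts with NKX2-1 in lung, had 939 and 881 counts, and FOXA2 had 66 and 100. Of the others, PAX9 had 95 and 167 counts and LPCAT1 8689 and 5878. The labels give lung as the tissue, and of the surfactant genes that mark alveolar type II cells only SFTPD was above 2 counts, with 19 in shCON and 6 in shUSP12, a log2 ratio of -1.48 (95% exact interval -3.35 to -0.35).

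Among 14 markers of pluripotent cells, only SOX2 belonged to the 90. SALL4 went from 23 to 45 counts, a log2 ratio of 0.85 (95% exact interval 0.14 to 1.69), and DNMT3B had 1407 and 1137. NANOG, TDGF1 and L1TD1 were at 0 in both libraries, LIN28A had 0 and 3 counts, and POU5F1 went from 90 to 41 counts, a log2 ratio of -1.17 (95% exact interval -1.77 to -0.66).

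Surface receptors and matrix proteins supplied the most counted genes. ADGRF1 (ENSG00000153292, chr6:46997708-47042350, minus strand), an adhesion G protein-coupled receptor, had 0 counts in shCON and 639 in shUSP12, the highest of the 90, and was at least 203-fold higher. FBLN2 (ENSG00000163520, chr3:13549125-13638422, plus strand), a glycoprotein of basement membranes and elastic fibres, had 1 and 581 counts, a ratio of 553 (98.9 to 21898). ENG (ENSG00000106991, chr9:127815013-127854658, minus strand), the endothelial co-receptor for TGF-β family ligands, had 2 and 262 counts, a ratio of 125 (34.2 to 1036). HCAR1 (ENSG00000196917, chr12:122726076-122730844, minus strand), the lactate receptor, had 1 and 230 counts, a ratio of 219 (38.9 to 8691). GPC4, a heparan sulphate proteoglycan that binds growth factors, had 0 and 174 counts, at least 55.3-fold higher. The endothelial matrix protein gene MMRN2 had 2 and 112 counts, and the collagenase gene MMP13 and the guanylate cyclase subunit gene GUCY1A2 both reached 61, from 0 and 2.

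The relatives of these genes differed among themselves. FBLN1 went the other way from FBLN2, from 2617 to 1127 counts, while FBLN5 had 149 and 179 and FBLN7 had 2 and 21. The glypican genes GPC1 and GPC6 had 5221 and 4538 and 705 and 404 counts, GPC3 had 0 and 1, and GPC2 had 25 and 86. All 4 ADGRF relatives of ADGRF1 had more counts in shUSP12, with ADGRF4 at 54 and 103, ADGRF5 at 0 and 12, ADGRF2 at 0 and 5 and ADGRF3 at 5 and 8. Among 50 closest relatives of the 90 genes, 30 averaged 1 CPM or more. The 50 were chosen after the values were seen, so their changes are a description and were not tested. Of the 30, 8 were 2-fold higher and 2 were 2-fold lower (background 6.48% and 3.01%). Those higher by the largest log2 ratio were TENM3, which guides neurons as TENM4 does, with 5 and 524 counts, the protease gene TMPRSS11E with 0 and 47, GALNT14 with 21 and 314 and FRAS1, a matrix partner of FREM2, with 36 and 354.

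ENG and MMRN2 are genes of endothelium, so the other endothelial markers were examined. None of the 11 markers in the endothelium list was among the 90, and their summed level was 2.81 CPM in shCON and 5.85 CPM in shUSP12. EMCN was at 0 in both libraries, CDH5 had 3 counts in each, and PECAM1 had 10 and 7. KDR had 0 and 32 counts, VWF 1 and 13 and TIE1 3 and 13, whereas CLDN5 had 7 and 0. The receptor ACVRL1 that pairs with ENG had 23 and 18 counts, and of 7 genes of that receptor complex 0 changed 2-fold. MMRN2 overlaps SNCG on the opposite strand, which had 38 counts in shCON and 931 in shUSP12. Whether reads of SNCG contributed to MMRN2 was not tested, as the strand setting of the counting is not given in the sources used here.

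Neuronal and guidance genes were counted from 0 in 5 of 10 cases. TMEM25 (ENSG00000149582, chr11:118531041-118547280, plus strand), a membrane protein of the immunoglobulin superfamily found in neurons, had 0 and 213 counts, at least 67.6-fold higher. It overlaps IFT46 on the opposite strand, which had 91 and 225 counts. NTRK2 (ENSG00000148053, chr9:84668375-85095751, plus strand), the receptor for brain-derived neurotrophic factor, had 0 and 144 counts, at least 45.7-fold higher. Its ligand gene BDNF was read alike in both libraries, with 201 and 207 counts. TENM4 had 0 and 138 counts, at least 43.8-fold higher, and the potassium channel gene KCNQ5 had 3 and 136, a ratio of 43.2 (14.5 to 212). The leucine-rich repeat protein gene LRRN1 had 3 and 117 counts, whereas its relative LRRN2 went from 402 to 196.

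Fewer than 65 counts stood behind each of the other 5 neuronal genes. EFNB3, an ephrin of axon guidance, had 2 and 63 counts, and CNR1, the brain cannabinoid receptor, 2 and 57. The semaphorin gene SEMA4A had 3 and 53 counts, and FGF13, an intracellular growth factor homologue that binds sodium channels, and the myelin gene NCMAP both had 0 and 51. No marker in the neuron list was among the 90, and that list summed to 121 CPM in shCON and 117 CPM in shUSP12, of which MAP2 made up 81.2 and 67.7 CPM. Of 6 neuron markers averaging 1 CPM or more, SYT1 with 20 and 282 counts and GAD1 with 21 and 53 were 2-fold higher and 0 were 2-fold lower.

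In the gamma protocadherin cluster on chromosome 5, each promoter drives its own first exon, which is spliced to 3 constant exons that all members share. PCDHGA12 had 3 and 181 counts, a ratio of 57.5 (19.4 to 281), PCDHGC3 had 2 and 137, a ratio of 65.3 (17.7 to 544), and PCDHGA11 had 2 and 132, a ratio of 62.9 (17.1 to 525). PCDHGA10 had 0 and 66 counts, at least 21.0-fold higher. These 4 genes and PCDHGB7, which had 4 and 76 counts, lie in the 3′ part of the cluster. PCDHGC4, with 2 and 3 counts, and PCDHGC5, with 3 in each library, lie there too and were hardly read. Genes in the 5′ part were read in both libraries, among them PCDHGB4 with 194 and 111 counts, PCDHGB5 with 140 and 200 and PCDHGB2 with 96 and 102. Some of these 5′ genes were also 2-fold or more higher in shUSP12, such as PCDHGA2 with 39 and 164 counts and PCDHGA6 with 29 and 71. Over the 24 rows of the cluster the summed level was 45.6 CPM in shCON and 91.3 CPM in shUSP12. Of those averaging 1 CPM or more, 10 of 19 were 2-fold higher and 0 were 2-fold lower, beside 6.48% and 3.01% over all rows, and the 4 genes chosen by the rule are among the 10. In the neighbouring clusters, 5 of 11 PCDHA rows were 2-fold higher and 1 was lower, and 0 of 12 PCDHB rows changed in either direction. Because the constant exons fit all members, the counts of single protocadherin genes are uncertain.

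**Figure D4:**
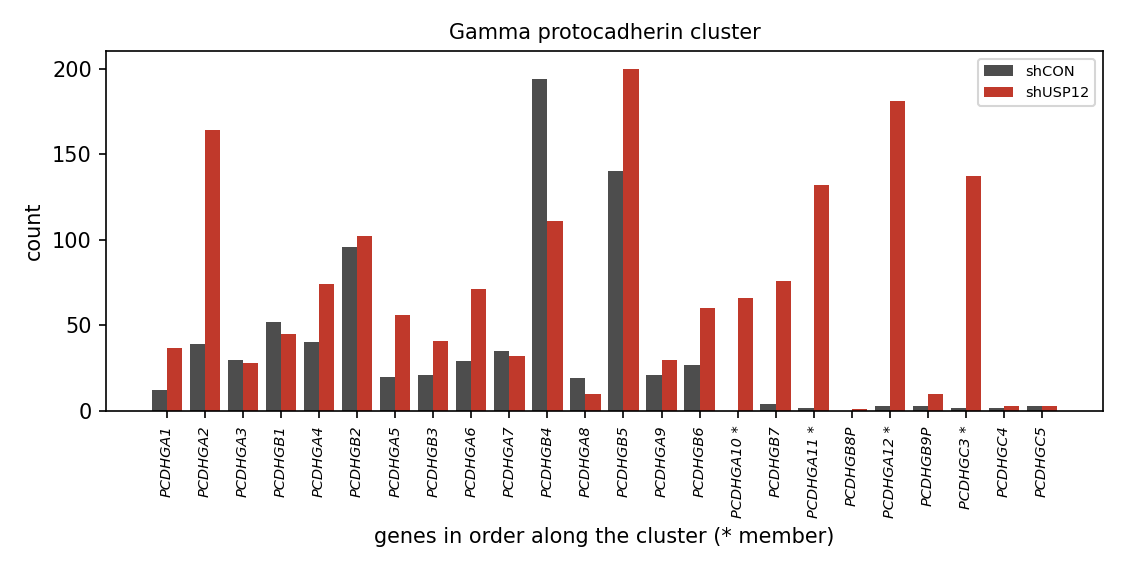
Counts in shCON (grey bars) and shUSP12 (red bars) of the 24 gamma protocadherin rows in their order along the cluster, with a star at the 4 that belong to the 90. The starred genes and PCDHGB7 stand near 0 in grey and at 66 to 181 in red, next to genes such as PCDHGB4 that were read in both libraries.

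Germline genes included 3 that act in the piRNA pathway, in which PIWI proteins and small RNAs silence transposons in the testis. GTSF1, a cofactor of PIWI proteins, had 2 counts in shCON and 156 in shUSP12, a ratio of 74.3 (20.2 to 619). HENMT1, whose promoter is shown above and which methylates the 3′ end of piRNAs, had 1 and 117 counts, a ratio of 111 (19.6 to 4439). RNF17, a Tudor domain protein of germ cells, had 0 and 54 counts, at least 17.1-fold higher. SYCP2, a component of the meiotic chromosome axis, had 3 and 75 counts, a ratio of 23.8 (7.84 to 118).

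Of the PIWI genes themselves, PIWIL1, PIWIL2 and PIWIL3 were hardly read, whereas PIWIL4 was read in both libraries. PIWIL1 had 1 and 0 counts, PIWIL2 had 2 and 5, and PIWIL3, DDX4 and TDRD1 were at 0 in both. Of 4 genes in the list of piRNA pathway partners averaging 1 CPM or more, 0 were 2-fold higher and PIWIL4 was lower, from 29 to 13 counts. On the meiotic side, STAG3, a cohesin subunit, had 102 and 296 counts, and HORMAD1 had 0 and 23, but SYCP1 was at 0 in both libraries and SYCP3 had 3 and 0. The 18 markers of testis and germ cells summed to 2.81 CPM in shCON and 6.50 CPM in shUSP12. Of them 7 were at 0 in both libraries, and TEX15, with 20 and 94 counts, was the only one to average 1 CPM.

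The 4 immune genes stood near the floor of the rule. LCK, the kinase of the T cell receptor, had 1 and 70 counts, ACP5, the phosphatase of osteoclasts and macrophages, 3 and 53, the adaptor gene HSH2D 3 and 52, and the nuclear body gene SP140 2 and 52. Of 16 genes in the leukocyte list, CD3D, CD3E, CD2, MS4A1, CD68 and the globin gene HBA1 were at 0 in both libraries. PTPRC had 0 and 2 counts, and HBB, also a globin gene and not a leukocyte marker, 0 and 1. The 16 summed to 1.89 CPM in shCON and 3.77 CPM in shUSP12, of which CD14, with 21 and 31 counts, made up 1.20 and 1.69 CPM. HSH2D, ACP5 and SP140 also overlap other read genes, among them SP110, which is on the opposite strand to SP140 and had 203 and 357 counts.

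Enzymes and proteins of varied function made up the last coding group. BTBD6, an adaptor of a ubiquitin ligase, had 0 and 150 counts, at least 47.6-fold higher, and overlaps BRF1 on the opposite strand, which had 641 and 767. DGLUCY, a mitochondrial enzyme that acts on D-glutamate, had 2 and 136 counts, a ratio of 64.8 (17.6 to 540.3). FTCD, a liver enzyme of histidine breakdown, had 2 and 119 counts, a ratio of 56.7 (15.4 to 473). The iron-dependent dioxygenase-like gene HPDL had 1 and 93 counts, whereas its relative HPD had 1937 and 1743. The LIM protein gene PDLIM4 had 1 and 85 counts and the circadian repressor gene CIART 1 and 76.

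SMN2 had 0 and 63 counts. It is a near-identical copy of SMN1, the survival motor neuron gene, which had 183 and 228 counts, so the split of reads between the copies is uncertain. The others were PRR20G with 0 and 92 counts, LRRC10B with 1 and 65, ARL14EPL with 3 and 60, RNF223 with 2 and 59, the endosomal protein gene PHETA2 with 2 and 56, FAM84A with 0 and 56 and the cytochrome P450 gene CYP4X1 with 1 and 51. The relative FAM84B was read in both libraries, with 370 and 908 counts.

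Among the 25 non-coding genes and pseudogenes, 10 were at 0 in shCON. The most counted was TSSC2 (ENSG00000223756, chr11:3401759-3408810, plus strand), a pseudogene on the short arm of chromosome 11, with 1 and 265 counts, a ratio of 252 (44.9 to 10008). The long non-coding RNA AC092490.1 had 1 and 218 counts, a ratio of 208 (36.9 to 8239.8). ANKRD20A19P, a pseudogene of a multicopy ankyrin family, had 0 and 196 counts, at least 62.2-fold higher. Per kilobase it was the highest of all 90 at 36.3 CPM per kilobase, followed by LINC00431 at 35.7 and TSSC2 at 19.3, all with short annotated exons. Pseudogenes share sequence with other copies, so these counts are uncertain.

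Several further transcripts are named after a tissue. TCAM1P, a pseudogene of a testicular adhesion molecule, had 0 and 120 counts, at least 38.1-fold higher. NFE4, named after a factor of fetal globin expression, had 0 and 132, at least 41.9-fold higher. CEACAM22P, of the carcinoembryonic antigen family, had 3 and 129, a ratio of 41.0 (13.7 to 201), and KRT16P2, a copy of an epidermal keratin gene, had 2 and 81. ARLNC1, a long non-coding RNA known from androgen-responsive prostate cancer cells, had 3 and 54 counts. Of the 5 transcripts with LINC names, LINC02204 had 2 and 136 counts, a ratio of 64.8 (17.6 to 540.3), and LINC01511 had 0 and 124, at least 39.4-fold higher. LINC00431 had 2 and 104 counts, LINC00958 had 1 and 86, and LINC01291 had 0 and 74.

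The 12 remaining transcripts carry clone names, apart from 1. AC022034.1 had 3 and 111 counts, the processed pseudogene FBXO36P1 1 and 101 and AP005482.1 0 and 90. Between 60 and 80 counts in shUSP12 were AC093904.4 (1 and 75), AC125603.2 (0 and 70), the pseudogene AF186192.2 (0 and 68), AL157886.1 (0 and 66) and AL713998.1 (0 and 63). Nearest the floor were AC156455.1 (1 and 58), AC073365.1 (2 and 55), AC004835.1 (1 and 52) and AL121904.1 (2 and 50).

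When 23 lists of tissue markers were set against the 90 genes, no list held more than 1 of them. The lists held 341 different genes, 340 of which had a row, and 4 of them were among the 90, or 1.18%, beside 0.155% of all rows the rule could take. These were VSIG1 of stomach, WFDC2 of ovary and fallopian tube, SOX2 of pluripotent cells and NKX2-1 of alveolar epithelium, each the only one of its list. The other 19 lists held none. Of the 340 genes, 188 did not exceed 3 counts in shCON and 154 did not in either library. The 4 genes were 2.13% of those 188, beside 0.226% of all rows at or below 3 counts in shCON. Marker genes are nearly all protein-coding, whereas 34.1% of the rows the rule could take are. The lists were also drawn up with earlier results of these data known. These shares are therefore a description, and an excess of marker genes was not tested. In all 34 genes were above 3 counts in shUSP12 alone and 17 in shCON alone. The summed level of a list was higher in shUSP12 for 11 of the 23, as the plot of the lists shows. For stomach and ovary it was 101 and 78.8 CPM and 106 and 117 CPM, in that order of libraries.

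**Figure D5:**
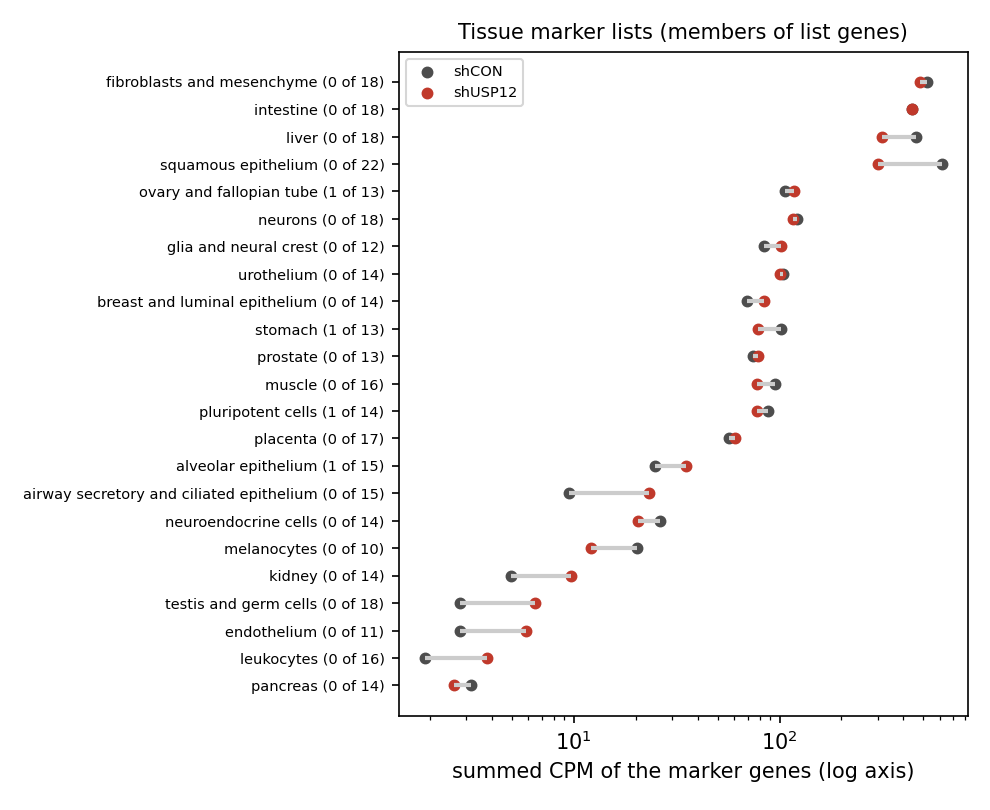
Summed CPM of the marker genes of 23 tissue lists in shCON (grey) and shUSP12 (red) on a logarithmic axis, with the number of the 90 genes among the genes of each list in brackets. No list held more than 1 of the 90, and 11 of the 23 lists were higher in shUSP12.

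None of the 5 lists, for genes silenced by DNA methylation in cancer, interferon response, retinoic acid signalling, Wnt ligands and inhibitors, and cytokines and their receptors, held any of the 90. The first of these lists holds CDKN2A, which had 0 and 694 counts and passed both thresholds but is left out by name, and WIF1, with 0 and 40, which did not reach the floor. In the interferon list 20 of 23 genes averaging 1 CPM or more were 2-fold higher, without any of them meeting the rule. Grouping genes by the start of their name gave 15 families, of which 10 held at least 1 of the 90. Over all rows the rule could take, of which 34.1% are protein-coding, the share was 0.155%. The cadherin and protocadherin family held 4 of its 111 rows, or 3.60%. All 4 were gamma protocadherins, whose rows overlap and share constant exons, so they are not separate loci. Mucins held 1 of 22, ephrins and their receptors 1 of 28, keratins and their pseudogenes 1 of 319, or 0.313%, LINC transcripts 5 of 1896, or 0.264%, and zinc finger genes 1 of 697, or 0.143%, near the share over all rows.

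Some of the genes were neighbours. Within 1 Mb of each other lay 9 pairs with 16 genes in all, including the protocadherins. RAB25 and SEMA4A are 76862 bases apart on chromosome 1, and of the read genes between them MEX3A had 200 and 583 counts and LMNA 14917 and 19632. CLIC5 and ADGRF1 lie 917360 bases apart on chromosome 6. Between them 4 of 5 read genes were 2-fold higher, namely ENPP5 with 0 and 31 counts, RCAN2 with 11 and 42, CYP39A1 with 47 and 102 and SLC25A27 with 60 and 129, while ENPP4 had 99 and 124. NTRK2 and the long non-coding RNA AL157886.1, which had 0 and 66 counts, are 11298 bases apart on the same strand. TMPRSS13 and TMEM25 on chromosome 11 enclose TMPRSS4, left out of the rule, which had 0 and 489 counts, and MPZL3, which had 89 and 197.

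Other neighbouring pairs stood amid genes that differed little. Between AC156455.1 and HCAR1 on chromosome 12, 1 of 9 read genes was 2-fold higher, the HCAR1 relative HCAR2 with 4 and 23 counts. Between ANKRD20A19P and RNF17 on chromosome 13, SPATA13 had 273 and 225 counts and PARP4 1012 and 1457, and neither changed 2-fold. The nearest read gene on each side was also taken for all 90 genes, which gave 172 rows. Of these 9.88% were 2-fold higher and 0.581% 2-fold lower, with a median log2 ratio of 0.11, beside 6.48%, 3.01% and -0.01 over all rows. Most genes next to one of the 90 were therefore read at similar levels in both libraries.

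Overlap with another read gene was found for 16 of the 90, the protocadherins included. Among the partners outside the protocadherins, P4HA2, opposite PDLIM4, had 678 and 753 counts, SUMF1, opposite LRRN1, had 535 and 527, and RAB8A, on the strand of HSH2D, had 231 and 217. Others were higher in shUSP12 like the gene they overlap. Besides SNCG and IFT46 these were FBXL13, opposite NFE4, with 9 and 47 counts and MIR663AHG, opposite AL121904.1, with 0 and 33. Without the 16, 74 genes and 478 CPM in shUSP12 remained.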

How the data were processed

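RNA of 2 H1944 libraries, 1 control (shCON) and 1 with USP12 knockdown (shUSP12), was measured, and groups were taken from the treatment labels. Per the labels, stranded mRNA libraries were made. The deposited values were whole-number counts per gene, which the authors did not normalise. The study's methods named Seqtk, Hisat2 2.0.4 on GRCh38 and StringTie 1.3.0 with uniquely mapped fragments, whereas the submitters' processing notes named Trimmomatic, HISAT2 2.0.4 and HTSeq 0.6.0. The annotation release and the strand setting are not given in the sources used here. Counting unique fragments leaves near-identical copies undercounted.

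Each table held 59125 rows with a count and 91 lines of spilled text without one, which were left out. Of 58735 Ensembl identifiers, 99.1% matched GENCODE 44, which gave positions, types and exon lengths, counted from 1. CPM used trimmed mean of M values factors from edgeR 4.0.16 in R 4.3.3 (0.955 for shCON and 1.05 for shUSP12). Log2 ratios were taken after adding 0.1 CPM, which understates changes of low genes, and changes of 2-fold were counted over rows averaging 1 CPM or more in both libraries together. Intervals are exact Clopper-Pearson 95% intervals, and intervals and the floor of 3 counts cover counting error only. Computations used Python 3.11.15, NumPy 2.4.6, pandas 2.3.3, SciPy 1.17.1 and Matplotlib 3.10.9, and were tested on simulated data. Promoters came from RefSeq on GRCh38.p14. No statistical test was made.

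The members and lists were chosen with earlier results of these data known. Every member is accounted for by its counts, and the 30 with the highest shUSP12 count also by a fold. Other genes named outside the lists were chosen after their values were seen. Alternatives were other thresholds, scalings (total counts and DESeq2 1.42.0 size factors), pseudocounts and filters. Versions without overlapping genes, without the X chromosome and with the left-out names kept were added after the data were seen.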

Additional observations from a re-analysis of the deposited data

Results flagged for a closer look

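Among loci that the files give only an assembled number and no gene name, 9 passed the same thresholds of 3 counts in shCON and 50 in shUSP12. They were flagged because they are signal outside the named genes that the comparisons use. The highest had 0 counts in shCON and 2237 in shUSP12, more than any of the 90 genes, the next had 1 and 532, and the other 7 had between 61 and 220 counts in shUSP12. In the opposite direction 1 such locus passed. Their position and sequence were not analysed here.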

How the results depend on the processing

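No paired analysis was possible because only 1 library stood for either group, and for the same reason no replicate was left out. The number of genes, 90, followed the thresholds. It was 29 with a ceiling of 0 counts in shCON, 50 with 1 and 167 with 10, and 157 with a floor of 30 counts in shUSP12 and 37 with 100. It stayed within 1.5 times with a ceiling of 5 (112), thresholds in CPM (68), coding genes alone (65), the left-out names kept (110), no X chromosome (86) and no overlapping genes (74). Their summed level of 588 CPM became 616 CPM with total-count scaling, 727 CPM with the floor of 30, 399.96 CPM with the floor of 100 and 478 CPM without overlapping genes. Rows at least 2-fold higher, 947, became 3993 without a filter and 361 with a mean of at least 5 CPM. Total-count scaling moved the median log2 ratio of all rows by 0.13, and the split of 2-fold calls from 947 higher and 440 lower to 1137 and 291. The USP12 log2 ratio ran from -1.77 to -1.63. Against 10 counts in place of 3, all 12 lower bounds of a fold given for the most counted genes were smaller by construction, and total-count scaling moved 1 of them and 0 of 18 ratios beyond their counting interval. Of 28 list medians, 5 moved with a filter of 0.1 CPM, 8 with 5 CPM and 2 with total-count scaling, and DESeq2 size factors moved none. At this depth a gene at the floor, such as LHX6 with 50 counts, had 2.73 CPM with a counting interval of 2.03 to 3.60, and the missing replicates limit every comparison.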
